A study of Mus musculus with 24 samples.

Results

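The genes described here are 7 of the 24421 in the deposited count table: the retinoic acid receptor genes Rara, Rarb and Rarg, the retinoid X receptor genes Rxra and Rxrb, and 2 enzyme genes, Aldh1a1 and Cyp26b1. They were taken by symbol, and all 7 passed the filter on low counts that left 14205 genes for testing. Transcript counts came from bulk RNA-seq of hematopoietic cells of male C57BL/6 mice, young (12 weeks) or aged (107 weeks), whose marrow had been enriched for CD117, the receptor tyrosine kinase Kit. The long-term stem cell (LT-HSC) gate was CD150+CD48-, the short-term stem cell (ST-HSC) gate CD150-CD48- and the multipotent progenitor (MPP) gate CD150-CD48+, all within lineage-negative Sca1+ Kit+ cells. Each age and population had 4 libraries, giving 6 groups and 24 libraries. The labels name no treatment or modified allele, and they do not link a library to a mouse, so p-values measure the spread between libraries.

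Retinoic acid is made from vitamin A in 2 oxidation steps. Retinol is first turned reversibly into retinaldehyde, and aldehyde dehydrogenases such as the product of Aldh1a1 then oxidize retinaldehyde irreversibly to retinoic acid. Enzymes of the Cyp26 family oxidize retinoic acid to products that are cleared. Inside the nucleus retinoic acid binds receptors of the RAR family, which sit on DNA as heterodimers with an RXR partner and switch between corepressors and coactivators. Retinoid signaling is known in the marrow for its role in holding stem cells in dormancy, and a high aldehyde dehydrogenase activity is a long-used property of primitive blood cells.

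Library totals ran from 7307151 to 12946550 counts. Levels are in CPM, which relates the reads of a gene to the library total after TMM scaling and takes no account of gene length, and are written as mean ± SD of a group's 4 libraries. The sort labels were checked against their own genes. Slamf1, which encodes CD150, averaged 26.2 CPM in young and 72.1 CPM in aged LT-HSC and at most 0.789 CPM in any other group, and Kit was above 896 CPM in every library. Some libraries stood apart in genes of other cell types. The summed level of granulocyte genes was 915 CPM in young LT-HSC library 1, with 682 CPM of the primary granule gene Mpo, and it ran from 169.8 to 3165 CPM in aged ST-HSC libraries. The summed level of B and plasma cell genes was 1858 to 9323 CPM in aged MPP and 35.8 to 342 CPM in young MPP. Genes of mature granulocytes alone summed to 1523 and 284 CPM in aged ST-HSC libraries 2 and 3, 121 CPM in library 1 and 7.63 CPM in library 4. A set of 3 libraries was also left out as a whole, made up of young LT-HSC 1 for its granulocyte sum and aged ST-HSC 2 and 3 for mature granulocyte genes, and each age comparison below called the same number of the 7 genes without them. Aged ST-HSC library 1, which had the highest granulocyte sum of its group (3165 CPM), was kept in that set of fits and was left out on its own in another. The same holds for aged MPP library 4 and young ST-HSC library 4, with 284 and 241 CPM of mature granulocyte genes. The set of 3 is thus not every library with such counts. A change in a bulk library can come from more or fewer cells of a type or from more or less RNA per cell, and these cannot be told apart.

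In LT-HSC, 4 of the 7 genes changed with age: Rarb, Aldh1a1 and Cyp26b1 rose and Rxrb fell. The median log2 difference of the 7 was 0.49 in LT-HSC, -0.01 in ST-HSC and 0.05 in MPP, against 0.00, 0.01 and 0.00 over all genes. Of all 14205 genes tested, 18.9% passed in that comparison (9.98% higher and 8.87% lower), by edgeR's quasi-likelihood test at an adjusted p under 0.05. In ST-HSC and in MPP, Aldh1a1 alone of the 7 passed, and it rose. All genes passed at 5.79% in ST-HSC (3.58% higher and 2.21% lower) and at 9.79% in MPP (5.53% higher and 4.27% lower). The question behind these comparisons is how age alters each sorted population.

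**Figure D1:**
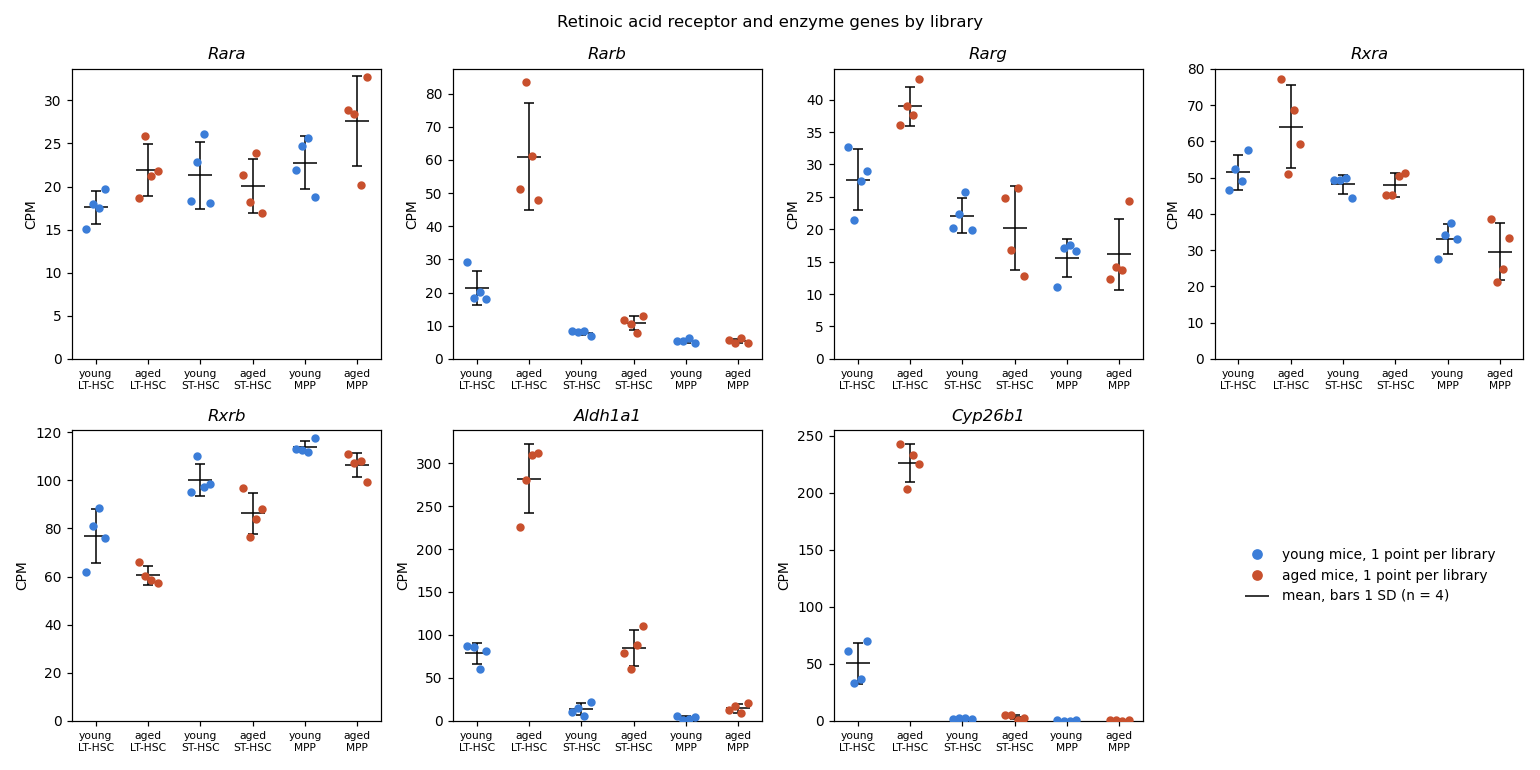
CPM (vertical axes, linear, from 0) of the 7 genes in each library (points), by age and population, with the mean and 1 SD of 4 libraries as bars. Rarb, Aldh1a1 and Cyp26b1 were highest in aged LT-HSC, where their means were 61.0, 282 and 226 CPM, and Rxrb was lowest there at 60.5 CPM.

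Aldh1a1 encodes a retinaldehyde dehydrogenase, which carries out the last step of retinoic acid synthesis. The gene lies on mm10 chromosome 19 at 20492715 to 20643465 on the plus strand. It was read at 87.1, 85.8, 60.3 and 80.9 CPM in young LT-HSC and at 225, 280.0, 309 and 312 CPM in aged LT-HSC. Every aged LT-HSC library was above every young one. The change was a log2 increase of 1.84 ± 0.31 (SE), 3.59-fold (adjusted p = 0.00034).

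The level of Aldh1a1 in ST-HSC was 10.5, 15.0, 5.78 and 22.3 CPM in the young libraries and 78.3, 60.5, 88.6 and 111 CPM in the aged ones. Again the ages did not overlap, and the log2 increase was 2.68 ± 0.35 (6.39-fold, adjusted p = 9e-05). The aged ST-HSC mean of 84.6 ± 21.0 CPM lay within the range of young LT-HSC libraries, a pair of groups that was not tested. Without the 3 libraries that stood apart the log2 increase in ST-HSC was 2.83 (adjusted p = 0.00098), and leaving out aged ST-HSC library 1 or 4 gave 2.72 and 2.53 (adjusted p = 0.00029 and 0.00031). Genes of other cell types differed between the same libraries. Granulocyte genes summed to 86.2 to 336 CPM in young and 169.8 to 3165 CPM in aged ST-HSC, monocyte and macrophage genes to 28.1 to 41.2 and 102 to 384 CPM, T and NK cell genes to 57.9 to 79.2 and 153 to 223 CPM, and B and plasma cell genes to 18.6 to 22.5 and 19.1 to 364 CPM. The aged library with the most Aldh1a1, library 4, had the lowest granulocyte sum and the highest monocyte and macrophage and B and plasma cell sums of its group. The part of these genes in the Aldh1a1 change was not tested.

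In MPP, Aldh1a1 was a rare transcript in the young libraries, at 5.51, 1.32, 2.07 and 4.34 CPM, and was read at 11.9, 17.0, 8.43 and 20.3 CPM in the aged ones. The log2 increase was 2.10 ± 0.42 (4.28-fold, adjusted p = 0.0034), with no overlap of the ages. B and plasma cell genes also differed between young and aged MPP libraries, as given above. Monocyte and macrophage genes summed to 42.5 to 174 CPM in young and 190 to 548 CPM in aged MPP. T and NK cell genes summed to 137 to 190 and 197 to 368 CPM. The aged libraries stood in the same order by Aldh1a1 and by the B and plasma cell sum, but not by these latter sums. The part of all these genes in the Aldh1a1 change was not tested. The 3 increases of Aldh1a1 were not distinguishable from each other. The increase in LT-HSC minus that in ST-HSC was -0.83 on the log2 scale, with a 95% interval of -1.78 to 0.12 (adjusted p = 0.35), and the increase in LT-HSC minus that in MPP was -0.25, with an interval of -1.35 to 0.84 (adjusted p = 0.82).

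Aldh1a1 also fell from each population to the next at both ages. In young mice the level in LT-HSC was 5.92-fold that in ST-HSC (log2 difference 2.57, adjusted p = 2.3e-05) and the level in ST-HSC 3.93-fold that in MPP (1.97, adjusted p = 0.0028). In aged mice these steps were 3.33-fold (1.73, adjusted p = 0.00024) and 5.87-fold (2.55, adjusted p = 1.4e-05). The near copy Aldh1a7, with which reads could be shared, was at or under 2.85 CPM in each group mean, and C730002L08Rik, a gene that overlaps the Aldh1a1 locus, shares none of its exon bases and had at most 3 counts in a group.

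Cyp26b1 encodes a cytochrome P450 that hydroxylates retinoic acid and so removes it. It lies on mm10 chromosome 6 at 84571414 to 84593908 on the minus strand. Young LT-HSC libraries held 61.0, 33.0, 36.8 and 70.1 CPM and aged LT-HSC libraries 242, 203, 233 and 225 CPM. The lowest aged library was well above the highest young one, and the aged libraries lay closer together (SD 16.6 on a mean of 226 CPM) than the young ones (SD 18.2 on 50.2 CPM). The log2 increase was 2.16 ± 0.31 (4.48-fold, adjusted p = 3.9e-05).

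Outside LT-HSC there was little Cyp26b1. The mean was 1.73 ± 0.467 CPM in young and 3.22 ± 2.01 CPM in aged ST-HSC, where the ages overlapped and the log2 difference of 0.91 had a 95% interval of -0.11 to 1.92 (adjusted p = 0.31). Young MPP libraries held 4, 0, 0 and 7 reads and aged MPP libraries 10, 4, 1 and 5 reads of the gene. At these counts an age difference in MPP was not detectable (0.49, interval -1.55 to 2.52, adjusted p = 0.82). The age change in LT-HSC was not shown to differ from that in ST-HSC (difference 1.26, interval 0.03 to 2.48, adjusted p = 0.26) or in MPP (1.68, interval -0.68 to 4.04, adjusted p = 0.39).

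In each comparison of populations Cyp26b1 gave the largest fitted difference of the 7 genes. LT-HSC exceeded ST-HSC by 4.83 ± 0.41 on the log2 scale in young mice (28.5-fold, adjusted p = 4.8e-08) and by 6.09 ± 0.39 in aged mice (68.1-fold, adjusted p = 1.9e-10). ST-HSC exceeded MPP by 2.77 ± 0.60 in aged mice (adjusted p = 0.0016). The same step in young mice was 2.34 ± 0.77 (adjusted p = 0.036), and leaving out single libraries of either group moved its adjusted p to as much as 0.1, limma-voom to 0.13 and testing with no low count filter to 0.057.

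The RAR genes encode the receptors that bind retinoic acid itself. Rarb is a textbook retinoic acid target as well as a receptor, because its promoter carries a repeat that RAR and RXR bind. Direct repeats of the hexamer AGGTCA or its variants, which were AGTTCA along with GGGTCA as well as GGTTCA, with a spacer of 1, 2 or 5 bases were searched on both strands, from 250 bases before to 50 bases after the start of each RefSeq transcript (build GRCm38.p6). A stretch can match only 1 of these hexamers on a strand. All 7 genes were found by symbol among these promoters, with 14 promoters in all, and Rarb alone of the 7 held a repeat. Its spacer was 5 bases, a form found in 32 of 32851 promoters (0.0974%), and it ran from 53 to 37 bases before the start, on the strand of the gene. Any of the 3 spacings was found in 0.588% of promoters. Of the other retinoid genes listed for this report, Cyp26a1, a relative of Cyp26b1 that is another textbook target, held the repeat with a spacer of 5 bases on the opposite strand, and Bco1 held a repeat with a spacer of 1 base. The 150 bases before the start are shown 5′ to 3′ on the strand of the gene for Rarb and for Cyp26a1, which hold the repeat, and for Cyp26b1, which rose with Rarb in aged LT-HSC and holds none in this window. Capitals mark only the 2 hexamers of the repeat, which read as their reverse complement in Cyp26a1, and not hexamers that stand alone.
Rarb (chr14:16575477-16575626, minus strand): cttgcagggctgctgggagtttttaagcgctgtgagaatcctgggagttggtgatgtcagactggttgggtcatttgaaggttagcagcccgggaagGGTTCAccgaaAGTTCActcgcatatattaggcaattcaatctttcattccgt
Cyp26a1 (chr19:37697658-37697807, plus strand): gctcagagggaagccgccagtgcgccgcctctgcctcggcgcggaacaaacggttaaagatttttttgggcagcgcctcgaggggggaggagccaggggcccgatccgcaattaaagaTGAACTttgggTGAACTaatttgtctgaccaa
Cyp26b1 (chr6:84593811-84593960, minus strand): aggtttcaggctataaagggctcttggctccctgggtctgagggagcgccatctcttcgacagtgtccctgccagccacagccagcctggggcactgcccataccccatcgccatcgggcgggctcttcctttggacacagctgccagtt
A match is a stretch of letters and says nothing of binding in these cells. The 2 genes with the spacer of 5 bases were at very different levels, since Cyp26a1 had 55 counts over the 24 libraries in all and was read in 13 of them, while Rarb was read in every library.

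Rarb lies on mm10 chromosome 14 at 16430839 to 16819156 on the minus strand. It was read at 29.1, 18.3, 20.0 and 18.2 CPM in young LT-HSC and at 51.3, 83.6, 61.1 and 47.8 CPM in aged LT-HSC. All aged libraries were above all young ones, and the highest young library was library 1, which also held the granulocyte counts. The log2 increase was 1.51 ± 0.18 (2.86-fold, adjusted p = 1.1e-06), and 1.70 (adjusted p = 2.8e-07) without the 3 libraries that stood apart.

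In ST-HSC Rarb was read at 8.26, 8.08, 8.34 and 6.85 CPM in young libraries and at 11.8, 10.5, 7.87 and 12.8 CPM in aged ones. The ages overlapped there, and the log2 difference of 0.45 had a 95% interval of 0.05 to 0.85 (adjusted p = 0.19). In MPP the means were 5.43 ± 0.577 CPM in young and 5.36 ± 0.716 CPM in aged mice, a log2 difference of -0.02 with an interval of -0.45 to 0.41 (adjusted p = 0.97).

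Rarb was the member whose age change was shown to differ between populations. Its increase in LT-HSC exceeded that in MPP by 1.53 ± 0.28 on the log2 scale (adjusted p = 0.00054), and it was the 1 gene of the 7 to pass in this test, against 9.93% of all genes. The excess over ST-HSC was 1.06 ± 0.27 (adjusted p = 0.021), again the 1 gene of the 7, against 4.05% of all genes. That second call was lost, at adjusted p from 0.051 to 0.075, when young LT-HSC library 2, 3 or 4, young ST-HSC library 3 or aged LT-HSC library 2 was left out. The age changes of ST-HSC and MPP differed for none of the 7 genes by edgeR or by any other tool run, and 0.465% of all genes passed that test. The unadjusted 95% interval of that difference included 0 for each of the 7.

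**Figure D2:**
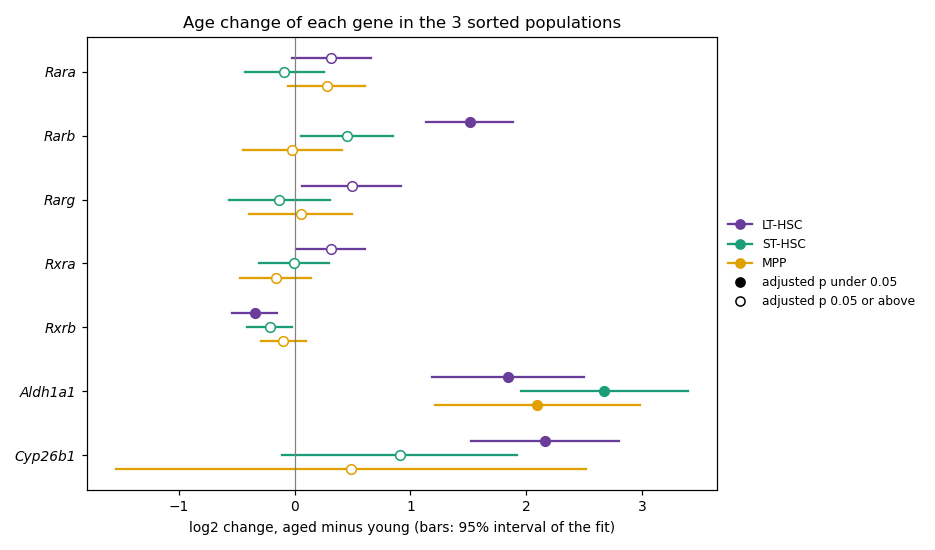
Log2 change from young to aged (horizontal axis, with 95% intervals of the fit) of the 7 genes in LT-HSC, ST-HSC and MPP, filled where the adjusted p was under 0.05. Aldh1a1 is filled in all 3 populations, at 1.84, 2.68 and 2.10, whereas Rarb, Cyp26b1 and Rxrb are filled in LT-HSC only, at 1.51, 2.16 and -0.34.

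Across populations Rarb was highest in LT-HSC at both ages. LT-HSC exceeded ST-HSC 2.70-fold in young mice (log2 difference 1.44, adjusted p = 4.2e-06) and 5.64-fold in aged mice (2.50, adjusted p = 7.7e-11). ST-HSC exceeded MPP 2.02-fold in aged mice (1.01, adjusted p = 0.00034), while the same step in young mice was 0.54 (adjusted p = 0.063). A limit belongs to this gene: 1793 of its 5265 annotated exon bases (34.1%) also lie in exons of Top2b, a topoisomerase gene on the other strand, and how the counting treated strand is not stated in any source used here. Top2b itself was between 136 and 169 CPM in the 6 group means and its own age differences were 0.06, 0.15 and 0.05 on the log2 scale in LT-HSC, ST-HSC and MPP (adjusted p = 0.69, 0.3 and 0.79). Between populations, Top2b was lower in LT-HSC than in MPP in young (-0.26, adjusted p = 0.012) and aged mice (-0.25, adjusted p = 0.0095). It was also lower in aged LT-HSC than in aged ST-HSC (-0.23, adjusted p = 0.032), and its remaining population differences did not pass.

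Rarg, on mm10 chromosome 15 at 102234938 to 102257517 on the minus strand, encodes an RAR known from work on stem cell maintenance. It was read at 32.7, 21.5, 27.4 and 28.9 CPM in young LT-HSC and 36.1, 39.0, 37.6 and 43.2 CPM in aged LT-HSC. The ages did not overlap, but the log2 difference of 0.49 ± 0.21 missed the threshold (adjusted p = 0.098). It passed with limma-voom (adjusted p = 0.045) and when the 2 groups were fitted alone (adjusted p = 0.025), and the adjusted p over all alternatives ran from 0.025 to 0.28. In ST-HSC and MPP the differences were -0.13 (interval -0.57 to 0.30) and 0.05 (interval -0.39 to 0.49).

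The level of Rarg was higher in LT-HSC than in MPP at both ages, 1.78-fold in young mice (log2 difference 0.83, adjusted p = 0.0031) and 2.41-fold in aged mice (1.27, adjusted p = 1.2e-05). Aged LT-HSC also exceeded aged ST-HSC (0.95, adjusted p = 0.00093), whereas the young pair differed by 0.32 (interval -0.11 to 0.75, adjusted p = 0.4).

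Rara, on mm10 chromosome 11 at 98927818 to 98974942 on the plus strand, encodes the RAR known for its fusion to PML in promyelocytic leukemia. Of the 7 genes it had the narrowest range of group means. These ran from 17.6 ± 1.92 CPM in young LT-HSC to 27.6 ± 5.24 CPM in aged MPP, with 21.3, 22.8, 21.9 and 20.1 CPM in young ST-HSC, young MPP, aged LT-HSC and aged ST-HSC. Neighbours in that order overlapped in their libraries. None of the 3 age differences passed (0.32, -0.09 and 0.28 in LT-HSC, ST-HSC and MPP, adjusted p = 0.2, 0.83 and 0.32). Of the population steps, aged ST-HSC was below aged MPP (-0.46, adjusted p = 0.035), a call lost in several alternatives, for example at adjusted p = 0.12 without aged MPP library 4 and 0.11 without aged ST-HSC library 4.

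Levels of the 3 RAR genes can be compared per kilobase of annotated exon. In young LT-HSC Rara stood at 4.03, Rarb at 4.06 and Rarg at 6.49 CPM per kb, and in aged LT-HSC at 5.01, 11.6 and 9.15 CPM per kb. The share of Rarb in the RAR sum was 27.7% ± 4.05 (23.4 to 33.1%) in young and 44.5% ± 5.72 (37.5 to 51.3%) in aged LT-HSC. Dividing the same Rarb counts, with no read removed, by only the 3.472 kb not shared with Top2b gave shares of 36.7% and 54.8%. That length would be right only if reads in the shared bases had not been counted, which is not known. In MPP, Rara made up the most of the RAR sum at either age, with 52.7% in young and 56.9% in aged mice, and Rarb about 10.5% and 9.52%. These shares describe the libraries and were not tested, and exon length stands for all annotated isoforms together.

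**Figure D3:**
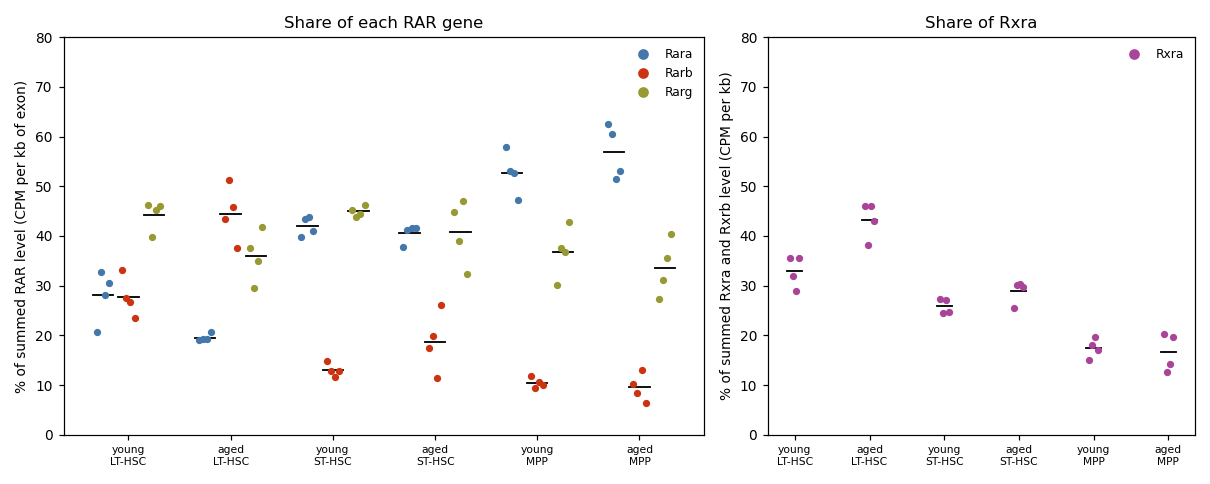
Left, the share (%) of Rara, Rarb and Rarg in their summed level, in CPM per kb of annotated exon, for each library (points) with the group mean (bar). Right, the share of Rxra in the summed level of Rxra and Rxrb. The Rarb share averaged 44.5% in aged LT-HSC and 27.7% in young LT-HSC, and the Rxra share was higher in LT-HSC than in MPP at both ages.

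The RXR genes encode the partners of the RARs and of several other nuclear receptors. Rxrb, on mm10 chromosome 17 at 34031812 to 34038399 on the plus strand, ran opposite to Rarb, Aldh1a1 and Cyp26b1. It was read at 61.7, 81.0, 88.3 and 75.9 CPM in young LT-HSC and 65.9, 60.2, 58.4 and 57.3 CPM in aged LT-HSC. Young LT-HSC library 1 lay below the highest aged library, so the ages overlapped. The log2 change was -0.34 ± 0.09 (adjusted p = 0.011), and without young LT-HSC library 3 it missed the threshold (adjusted p = 0.054). In ST-HSC and MPP the differences were -0.22 (interval -0.41 to -0.02, adjusted p = 0.19) and -0.10 (interval -0.29 to 0.09, adjusted p = 0.58). The ages did not overlap in MPP, at 112.0 to 117.7 CPM in young and 99.4 to 111.1 CPM in aged libraries. The age change of Rxrb in LT-HSC was not shown to differ from that in ST-HSC (difference -0.13, adjusted p = 0.67) or in MPP (-0.25, adjusted p = 0.25).

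LT-HSC had less Rxrb than ST-HSC and MPP at both ages. The difference from ST-HSC was -0.39 in young (adjusted p = 0.0053) and -0.51 in aged mice (adjusted p = 0.00012), and that from MPP -0.57 (adjusted p = 2.3e-05) and -0.82 (adjusted p = 4.1e-08). Aged ST-HSC was also below aged MPP (-0.30, adjusted p = 0.015), a call lost without aged ST-HSC library 2 (adjusted p = 0.058) and without the 3 libraries that stood apart (adjusted p = 0.12).

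Rxra, on mm10 chromosome 2 at 27676440 to 27762957 on the plus strand, ran the other way across populations. Libraries of young LT-HSC held 46.6, 52.4, 49.2 and 57.7 CPM, and those of aged LT-HSC 77.3, 50.9, 68.6 and 59.4 CPM. These ages overlapped, and the log2 difference of 0.31 (interval 0.01 to 0.61) did not pass (adjusted p = 0.14). No age difference passed in ST-HSC (-0.01, adjusted p = 0.99) or MPP (-0.16, adjusted p = 0.55) either.

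MPP had less Rxra than the stem cell gates. In young mice the level in LT-HSC was 1.56-fold (log2 difference 0.64, adjusted p = 0.0012) and in ST-HSC 1.46-fold that in MPP (0.54, adjusted p = 0.0096). In aged mice these were 2.17-fold (1.12, adjusted p = 3.9e-07) and 1.63-fold (0.70, adjusted p = 0.00075). The call for young ST-HSC against MPP was lost without young MPP library 1 (0.46, adjusted p = 0.05). LT-HSC and ST-HSC differed in aged mice at 0.42 (adjusted p = 0.029), a call lost at adjusted p = 0.14 without aged LT-HSC library 1, 0.081 without aged LT-HSC library 3, 0.074 and 0.076 without aged ST-HSC library 1 or 2, and 0.11 without the 3 libraries that stood apart. Per kb of exon, Rxra made up 33.0% ± 3.23 of the sum of both genes in young and 43.3% ± 3.76 in aged LT-HSC, and 17.4% and 16.7% in young and aged MPP. Rxrg, the remaining RXR gene, had 20 counts over 3 libraries in all.

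Put by comparison, the count of the 7 genes past the threshold between populations was 4 for young LT-HSC against ST-HSC (12.5% of all genes passed), 3 for young ST-HSC against MPP (20.6%) and 6 for young LT-HSC against MPP (37.2%). In aged mice it was 6 in each of the 3 comparisons, where 32.3%, 29.9% and 56.8% of all genes passed. Rarb, Cyp26b1 and Aldh1a1 were higher in LT-HSC and Rxrb lower in all 4 comparisons of LT-HSC with ST-HSC or MPP.

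Genes whose pattern over the 24 libraries was most like that of a member were taken by Pearson's r of log2 CPM over 13517 genes, which describes the groups as much as the libraries, since libraries of a group share age and gate. For Rarb these were Sult1a1, a sulfotransferase (r = 0.977), Dennd4a (0.974) and Uba7 (0.971). For Cyp26b1 they were Gabarapl1, of the autophagy ATG8 family (0.980), Amotl2 (0.972) and again Sult1a1 (0.969). The level of Sult1a1 averaged 117 CPM in young and 502 CPM in aged LT-HSC, and 10.2 and 10.9 CPM in young and aged MPP. For Aldh1a1 the nearest were Spo11 (0.962), Clec1a (0.953) and Cpne8 (0.952). Spo11, known from meiotic recombination, averaged 22.1, 6.40 and 2.34 CPM in young LT-HSC, ST-HSC and MPP and 50.4, 23.4 and 8.52 CPM in the aged groups.

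Rxrb was closest to Bri3bp (0.943), Tmem206 and Rnf220, and Rxra to Ltbp3, a binding protein of latent TGF-beta (0.919), Tfr2 and Inadl. The closest gene to Rarg was Park2 (0.897), and that to Rara was Fbxw7, a ubiquitin ligase subunit (0.770), the lowest of the 7 best matches.

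The remaining genes of the pathway were read from lists by role, and their counts stand beside the 18.9%, 5.79% and 9.79% of all genes that passed with age in LT-HSC, ST-HSC and MPP. Among the enzymes that interconvert retinol and retinaldehyde, 12 of 22 were tested. In LT-HSC 3 rose with age and 1 fell (median log2 difference 0.12, against 0.00 over all genes), and in ST-HSC and in MPP 1 rose (medians -0.10 and -0.06, against 0.01 and 0.00). Rdh10, which oxidizes retinol to retinaldehyde and so feeds Aldh1a1, was read at 25.1, 22.0, 19.4 and 21.6 CPM in young LT-HSC and 60.2, 71.9, 52.7 and 50.0 CPM in aged LT-HSC. The log2 increase was 1.41 ± 0.15 (adjusted p = 1.6e-07) with no overlap of the ages. The same gene differed by -0.11 and -0.35 in ST-HSC and MPP (adjusted p = 0.76 and 0.18), and its increase in LT-HSC exceeded those by 1.53 (adjusted p = 9.3e-05) and 1.76 (adjusted p = 6.5e-06).

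Dhrs3, which reduces retinaldehyde back to retinol and is itself retinoic acid inducible, rose in all 3 populations. Young LT-HSC held 12.1, 6.64, 12.9 and 11.6 CPM and aged LT-HSC 47.1, 47.1, 68.2 and 44.8 CPM, a log2 increase of 2.25 ± 0.18 (adjusted p = 2.1e-09). Its increases were 1.12 in ST-HSC (adjusted p = 0.00012) and 0.78 in MPP (adjusted p = 0.0025), and the increase in LT-HSC exceeded these by 1.12 (adjusted p = 0.0079) and 1.47 (adjusted p = 0.00022). Unlike Aldh1a1, Cyp26b1 and Rarb, Dhrs3 was lowest in LT-HSC and highest in MPP, with means of 10.8, 37.7 and 71.7 CPM in young and 51.8, 82.4 and 123 CPM in aged LT-HSC, ST-HSC and MPP.

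Retsat, which saturates retinol, rose in LT-HSC from 29.0 ± 5.23 to 51.7 ± 5.51 CPM (log2 change 0.83, adjusted p = 0.00044). Dhrs4, a carbonyl and retinal reductase, fell there from 27.7 ± 3.35 to 18.3 ± 2.68 CPM (-0.60, adjusted p = 0.0013). In edgeR neither passed in the other populations, and no difference of their age changes passed. Retsat in ST-HSC (adjusted p = 0.068) passed with DESeq2 (0.049), with a replicate block by number (0.046) and without young ST-HSC library 2 (0.026). The difference between LT-HSC and MPP passed for Retsat with a block by age and number (adjusted p = 0.048). For Dhrs4 it passed without young LT-HSC library 1 or without the 3 libraries that stood apart (0.044 each).

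**Figure D4:**
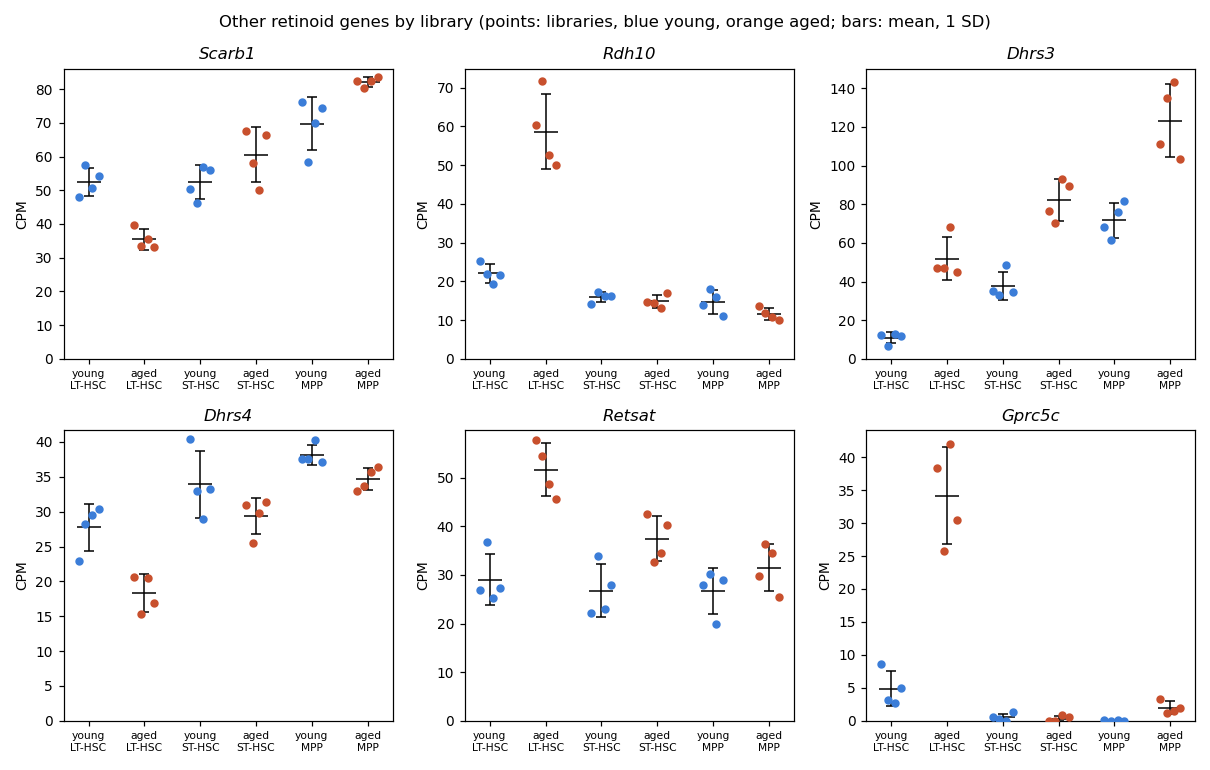
CPM (vertical axes, linear, from 0) of 6 other retinoid genes in each library (points, blue for young and orange for aged), with the mean and 1 SD of 4 libraries as bars. Rdh10, Retsat and Gprc5c were highest in aged LT-HSC, where Scarb1 and Dhrs4 were lowest, and Dhrs3 rose from LT-HSC to MPP at both ages.

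Of 15 genes of retinoid uptake, carriage and storage, 5 were tested. In LT-HSC 2 fell with age and none rose (median -0.36), in ST-HSC 1 rose (median 0.54), and in MPP 1 rose and 1 fell (median 0.29). Scarb1, a lipoprotein receptor that also takes up carotenoids, was at 47.9, 57.5, 50.7 and 54.2 CPM in young and 39.8, 33.3, 35.6 and 33.2 CPM in aged LT-HSC (log2 change -0.57, adjusted p = 0.00046). The change in LT-HSC differed from those in ST-HSC and MPP, which were 0.21 and 0.23 and did not pass, by -0.776 (adjusted p = 0.0033) and -0.802 (adjusted p = 0.00091). Lpl, a lipase, passed in ST-HSC (adjusted p = 0.044) and Lrp1, a remnant receptor, in MPP (adjusted p = 0.041), and these calls were lost in 10 and 8 of 15 alternatives, up to adjusted p = 0.19 with only the groups compared for Lpl and 0.2 without aged MPP library 4 for Lrp1.

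Of 6 other enzymes of retinoic acid synthesis and clearance, 3 were tested and none passed in any age comparison by edgeR or by any other tool run (medians 0.13, 0.43 and -0.47). At an unadjusted p under 0.05 there were also 0 in each. These enzymes were scarce: Aldh1a2 had 34 counts, Aldh1a3 150 and Cyp26c1 265 over all 24 libraries. The retinoic acid carrier gene Crabp1 had no count in any library, Crabp2 had 16 counts in all, the retinol esterifying enzyme gene Lrat 12 and the retinol transporter gene Stra6 19.

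All 12 coregulator genes were tested, and 2 rose in LT-HSC, 1 in ST-HSC and none in MPP, where 3 had an unadjusted p under 0.05 in edgeR (medians 0.02, -0.08 and -0.09). Over all genes 18.9% passed in LT-HSC and 5.79% in ST-HSC, so these counts are near the share of all genes. Nrip1, a ligand-dependent corepressor, rose in LT-HSC from 189 to 234 CPM (0.31, adjusted p = 0.0076) and in ST-HSC (0.35, adjusted p = 0.0083), the latter at adjusted p = 0.077 without the 3 libraries that stood apart. Ncoa1, a coactivator, rose in LT-HSC (0.24, adjusted p = 0.032), a call lost in 8 alternatives, up to adjusted p = 0.18 without young LT-HSC library 3.

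Of 14 genes for other receptors that pair with RXR, with Rxrg, 10 were tested. In LT-HSC 3 rose, in ST-HSC 2 and in MPP 1, and none fell (medians 0.33, 0.33 and 0.17). Nr4a2, an orphan receptor and early response gene, rose in all 3 populations, by 2.53 (adjusted p = 4.3e-08), 1.85 (adjusted p = 2.4e-05) and 1.44 (adjusted p = 0.00032). Its relative Nr4a1 rose in LT-HSC (1.23, adjusted p = 0.008) and ST-HSC (1.44, adjusted p = 0.0092), the latter at 0.054 with only the groups compared and 0.062 without the 3 libraries that stood apart. Vdr, the vitamin D receptor, rose in LT-HSC from 77.0 ± 6.55 to 116 ± 4.80 CPM (0.59, adjusted p = 0.0083) and showed differences of 0.20 and 0.18 in ST-HSC and MPP that did not pass.

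Rorb, an orphan receptor of a family named for its likeness to the RARs, was read at 1.54, 0.128, 0.626 and 0.761 CPM in young LT-HSC and at 43.2, 77.2, 65.6 and 59.5 CPM in aged LT-HSC (adjusted p = 4.2e-05). Young MPP libraries had no count of Rorb, so no fold is given for MPP, where aged libraries reached 3.55 CPM. The MPP call of Rorb was lost without aged MPP library 4 (adjusted p = 0.054) and with limma-voom (adjusted p = 0.19), and its ST-HSC call with limma-voom (adjusted p = 0.062).

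Among 20 genes known as retinoic acid inducible, 11 were tested. In LT-HSC 5 rose and 2 fell (median 0.97), in ST-HSC 3 rose (median 0.66), and in MPP 4 rose and 2 fell (median 0.16), against the medians of all genes given above. They include Dhrs3, which rose in all 3 populations. Gprc5c, an orphan receptor of a retinoic acid inducible family, rose in LT-HSC from 8.54, 3.19, 2.71 and 4.95 CPM to 38.3, 25.8, 42.0 and 30.5 CPM (2.81, adjusted p = 0.00046). It was also higher in aged MPP (adjusted p = 0.0028), where the young libraries had at most 1 count each. Its relative Gprc5b went the other way, with changes of -0.41 in LT-HSC (adjusted p = 0.028) and -0.62 in MPP (adjusted p = 0.0038). The LT-HSC call of Gprc5b was lost, up to adjusted p = 0.089, without young LT-HSC library 1 or 4 or aged LT-HSC library 2 or 4.

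Markers of other cell types that the marrow could add to the LT-HSC gate were read beside these results. The summed level of 5 endothelial genes was 107 to 148 CPM in young and 158 to 179 CPM in aged LT-HSC, and that of 7 stromal genes 24.7 to 42.5 and 38.3 to 66.1 CPM. Both sums were on average higher in aged LT-HSC, and the endothelial sums did not overlap. Of the endothelial genes, Pecam1 averaged 87.4 CPM in young and 109 CPM in aged LT-HSC, Kdr 8.98 and 32.7 CPM, Stab2 4.38 and 5.45 CPM, Emcn 26.8 and 20.0 CPM, and Cdh5 0.612 and 0.287 CPM. Of the stromal genes, Lepr stood at 0.17 and 0.22 CPM, Pdgfra at 0.92 and 0.21 CPM and Cxcl12 at 4.94 and 0.0813 CPM, while Pdgfrb was at 15.7 and 38.3 CPM. The sum of 8 T and NK cell genes was 25.5 to 38.7 CPM in young and 72.1 to 121 CPM in aged LT-HSC. It averaged 32.6 and 100.1 CPM, of which Klrb1c made up 7.90 and 91.4 CPM. The rise of the sum thus lay in Klrb1c, and the rest of that list together was lower in aged LT-HSC. Cd3e, Cd3g and Ncr1 were at 0 at both ages. Genes typical of the sorted populations differed too. In LT-HSC libraries, 5 LT-HSC genes summed to 1591 to 2002 CPM in young and 2230 to 2310 CPM in aged mice. The sum of 3 MPP genes was 150 to 267 CPM in young and 89.6 to 106.5 CPM in aged LT-HSC, and the ages overlapped in neither sum. The 5 LT-HSC genes summed to 1706 to 1937 CPM in young ST-HSC, so their sum did not separate young LT-HSC from young ST-HSC. The part of all these markers in the age changes was not tested.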

How the data were processed

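Per the labels' protocols, cDNA was primed with not-so-random primers, and Klenow fragment and Nextera XT were used to complete the libraries, with no molecular identifier named. The submitters' processing notes name featureCounts, HISAT2 and Trim Galore and the build mm10, and the tools' versions, the annotation and the handling of strand are not given in the sources that were used. The authors deposited 1 table of raw read counts by gene symbol, and per the submitters' processing notes featureCounts is the counting tool among those named.

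Counts were tested with edgeR 4.0.16 (R 4.3.3): filterByExpr, TMM factors and a robust quasi-likelihood fit with 1 mean per group over all 24 libraries (18 residual degrees of freedom), in 12 two-sided contrasts, each Benjamini-Hochberg adjusted over 14205 genes at a threshold of 0.05. The fit was tested on simulated data for the LT-HSC age comparison alone, with changes placed only in well counted genes. That test does not cover the other contrasts or genes of low counts. Library totals had a median of 8652939.5 counts. Intervals are 95% intervals of the fit and are not adjusted. The SE behind them was derived from each log2 difference and its quasi-likelihood F value, so they are rough where a group had few counts. Alternatives were RLE size factors, no low count filter, DESeq2 1.42.0, limma-voom (limma 3.58.1), only the groups compared, a replicate block, and leaving out each library. In the age comparisons the block was by library number, which joins young and aged libraries that are not from the same mouse. In all other contrasts it was by age and number. Leaving out 3 libraries together was chosen after seeing the data.

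The 7 genes and the pathway and marker lists were chosen with earlier results of these data known. Of each pathway list, genes passing in an age comparison were named, up to 4 by smallest p, and some of these are not reported here. For each of the 7 genes the 3 genes of highest Pearson correlation (mean of at least 1 CPM, log2 with a prior count of 2) were taken. Positions and exon lengths are from GENCODE M21 on mm10, and promoter sequences are from RefSeq on GRCm38.p6. Protein sequences were not used here. No 2 libraries were alike enough to be a repeat deposit (highest Pearson r 0.976).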

Additional observations from a re-analysis of the deposited data

Results flagged for a closer look

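In 4 of 42 groups of 4 libraries (7 genes in 6 groups) a library lay far from the other 3 of its group, where chance alone flags about 1 group in 20. Rarb was 29.1 CPM in young LT-HSC library 1 and 18.2 to 20.0 CPM in the others. Rarg was 11.1 CPM in young MPP library 1, against 16.6 to 17.5 CPM, and 24.3 CPM in aged MPP library 4, against 12.3 to 14.2 CPM. Rxra was 44.3 CPM in young ST-HSC library 4, against 49.2 to 49.8 CPM.

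Age changes that differed between populations, by a test of the difference in edgeR, were seen for 5 genes named here. On the log2 scale the change in LT-HSC minus that in ST-HSC was 1.06 for Rarb, -0.776 for Scarb1, 1.12 for Dhrs3 and 1.53 for Rdh10. The change in LT-HSC minus that in MPP was 1.53 for Rarb, -0.802 for Scarb1, 1.47 for Dhrs3, 1.76 for Rdh10 and 1.09 for Nr4a2. The difference for Nr4a2 (adjusted p = 0.029) was lost in 10 alternatives, at adjusted p up to 0.087.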

How the results depend on the processing

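Of 1426 recomputed values of the 7 genes, 1387 kept their side of the threshold, 30 lost and 9 gained a call, and none reversed. A sign was compared only where the value passed before or after. The calls of Aldh1a1 in all 3 age comparisons and of Rarb and Cyp26b1 in LT-HSC held in every alternative. Leaving out 1 library at a time, the number of the 7 genes past the threshold ran from 0 to 1 for the difference of age changes between LT-HSC and ST-HSC, from 1 to 2 for that between LT-HSC and MPP (2 without aged MPP library 1, when Rxra passed), and from 1 to 3 for young ST-HSC against MPP (1 without young MPP library 1). For aged ST-HSC against MPP it ran from 4 to 6. For aged against young LT-HSC it ran from 3 to 4 (3 without young LT-HSC library 3, when Rxrb missed the threshold), and from 4 to 5 in the other alternatives. The Rxra call for aged LT-HSC against ST-HSC was also lost in some of these fits, as given above.

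Counts over all genes moved by more than 1.5 times in 5 comparisons. Aged against young ST-HSC went from 823 to 534 with only the groups compared, 543 and 503 without young ST-HSC library 2 or 3 and 453 without the 3 libraries. Aged against young MPP went from 1391 to 914 without aged MPP library 4. The difference of age changes between LT-HSC and ST-HSC went from 575 to 964 with DESeq2, 377 without young LT-HSC library 3 and 897 without the 3 libraries, and that between ST-HSC and MPP from 66 to 179 with DESeq2, 18 with limma-voom, 25 with only the groups compared and 24 without the 3 libraries. Aged ST-HSC against MPP went from 4244 to 2698 without the 3 libraries. The cause was not tested. Called genes of the uptake list ran from 1 to 3, 0 to 2 and 1 to 2 in LT-HSC, ST-HSC and MPP, and those of the inducible list from 4 to 7, 2 to 5 and 4 to 6.

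Deviations of libraries with the same number and age correlated weakly (r from -0.103 to 0.198 over 24 pairs, median 0.0479, 7 over 0.1). Pairs of the same age but different number had r from -0.347 to 0.248 (72 pairs, median -0.00866, 9 over 0.1). Of 24 libraries, 8 correlated best with their own number. That count stands against the 24 pairs of the same number and 72 of a different number compared, so chance alone gives some such matches. These values do not settle whether the numbers are pairs, and the main fit did not use them as such. With a replicate block, of the 7 genes' calls the 1 for Rara in aged ST-HSC against MPP was lost (block by age and number, adjusted p = 0.05, log2 difference -0.45). Depth limits Cyp26b1 in MPP, where libraries held 0 to 10 counts.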
